A study of Mus musculus with 17 samples.

Results

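The genes described here are 8 members of the PPAR and RXR circuit: the peroxisome proliferator-activated receptors Pparg, Ppard and Ppara, the retinoid X receptors Rxra and Rxrb, the coactivators Ppargc1a and Ppargc1b, and the corepressor Ncor1. They were found by symbol, with 1 row each, in a table of 38087 genes. Male DBA/2J mice, 3 months old, were injected in the tibialis anterior with cardiotoxin, a venom toxin that kills muscle fibres, and cells sorted out of the regenerating muscle were profiled by RNA sequencing. There were 2 neutrophil samples, all from day 1, and 3 samples for each macrophage group, which were Ly6C high at days 1, 2 and 4 and Ly6C low at days 2 and 4. All groups came from injured muscle. The labels name no genetic change or further treatment and do not say whether animals were pooled. As its title says, the study concerns PPARγ, the product of Pparg, in macrophage polarization. The table holds 1 value per group, given here as the authors' log2 normalised reads, and how samples were combined is not given in the sources used here. So no value has an error between animals, no difference could be tested, and every difference below is a size without a replicate check.

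PPARs are nuclear receptors that bind fatty acids and their derivatives, and each binds DNA as a heterodimer with an RXR. Without an activating ligand the pair can recruit corepressor complexes such as that built around Ncor1, and with a ligand it recruits coactivators. Ppargc1a and Ppargc1b encode PGC-1alpha and PGC-1beta, coactivators that also drive mitochondrial genes. PPARγ is best known from fat cells, and in macrophages it governs genes of lipid uptake and alternative activation.

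Of the 8 genes, 5 (Pparg, Ppard, Rxra, Rxrb and Ncor1) had a log2 value of at least 5 in all 6 groups. Ppargc1b passed 5 in Ly6C low cells of day 4 only, and Ppara and Ppargc1a stayed under 2 in every group. A gene was compared when its value was at least 5 in 1 of the 2 groups and counted when the difference was at least 1 on the log2 scale, which is 2-fold. Depending on the library, 0.412 to 1.03 normalised units stood for a single read.

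The plot of levels by group shows these ranges, and Pparg had the widest of them.

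**Figure D1:**
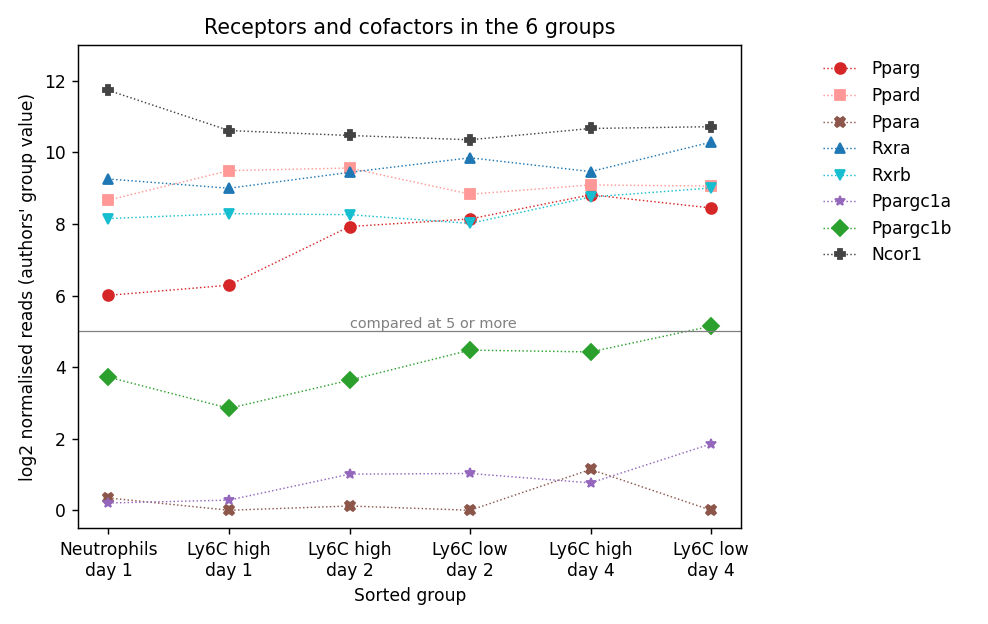
Log2 normalised reads (vertical axis, authors' group value) for the 8 genes, with the 6 sorted groups along the horizontal axis, each symbol being a gene in a group, with dotted lines only to guide the eye and no error bars because there is 1 value per group. Pparg goes from 6.01 in neutrophils to 8.81 in Ly6C high cells of day 4, Ncor1 lies between 10.35 and 11.73, and Ppara and Ppargc1a lie at the bottom.

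Pparg (ENSMUSG00000000440, chromosome 6, 115360951 to 115490399, plus strand, GRCm38) is transcribed from several start sites. The table has 1 row for the gene, so its values do not say which start was used. An antisense gene, Gm44079, overlaps an exon of Pparg and is not analysed here, and without strand its reads cannot be told apart from those of Pparg. The windows of 250 bases before its 3 RefSeq starts (GRCm38.p6) are shown because Pparg is the member whose level differed most over the groups, and that before the start of Ppard because it is the receptor set against it below. Capitals mark matches, on either strand, to the nuclear receptor hexamer AGGTCA, the PU.1 core GAGGAA and the C/EBP pattern TTGCNNAA. The AP-1 pattern TGANTCA was also searched. No matches overlapped.
Pparg, chr6:115360894-115361143, plus strand: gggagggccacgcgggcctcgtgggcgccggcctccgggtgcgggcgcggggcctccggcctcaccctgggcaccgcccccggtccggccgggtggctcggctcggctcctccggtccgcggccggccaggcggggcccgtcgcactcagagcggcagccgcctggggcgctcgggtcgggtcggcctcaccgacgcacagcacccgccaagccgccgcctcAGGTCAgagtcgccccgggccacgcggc
Pparg, chr6:115362099-115362348, plus strand: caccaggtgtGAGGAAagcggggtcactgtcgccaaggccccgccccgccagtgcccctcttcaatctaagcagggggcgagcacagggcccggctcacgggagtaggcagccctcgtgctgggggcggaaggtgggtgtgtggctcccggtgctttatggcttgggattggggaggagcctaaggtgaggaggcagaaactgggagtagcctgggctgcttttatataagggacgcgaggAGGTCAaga
Pparg, chr6:115421816-115422065, plus strand: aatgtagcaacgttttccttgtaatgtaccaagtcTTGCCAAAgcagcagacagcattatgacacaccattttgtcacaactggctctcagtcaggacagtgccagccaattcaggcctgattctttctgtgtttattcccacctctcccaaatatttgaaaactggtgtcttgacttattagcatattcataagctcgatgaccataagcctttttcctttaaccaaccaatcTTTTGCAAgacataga
Ppard, chr17:28232504-28232753, plus strand: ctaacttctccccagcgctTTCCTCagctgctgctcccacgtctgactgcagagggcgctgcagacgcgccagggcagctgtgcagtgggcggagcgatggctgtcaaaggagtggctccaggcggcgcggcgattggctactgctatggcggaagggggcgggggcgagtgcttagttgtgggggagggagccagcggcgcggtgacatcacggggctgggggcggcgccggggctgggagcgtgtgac

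The first Pparg window held 38 CG dinucleotides and 82.4% G or C, and an AGGTCA began 28 bases before the start. The second held 12 CG dinucleotides, an AGGTCA that began 9 bases before the start and a GAGGAA 240 bases before it. The third held 2 CG dinucleotides and 40.8% G or C, with matches to TTGCNNAA 215 and 16 bases before the start. The Ppard window held 22 CG dinucleotides and a GAGGAA match on the minus strand 231 bases before the start. None of these 4 windows matched TGANTCA. Over 32851 promoter windows of this length, 14.0% held AGGTCA, 23.3% GAGGAA, 9.56% TTGCNNAA and 6.75% TGANTCA, and the median number of CG dinucleotides was 6. These matches describe the letters only and are no evidence of binding.

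Pparg was the member with the widest range. It was at 6.01 in neutrophils, stood at 6.29, 7.93 and 8.81 over days 1, 2 and 4 of the Ly6C high cells, and at 8.14 and 8.45 over days 2 and 4 of the Ly6C low cells. The day 1 groups were therefore low and the 4 later groups high. The order from lowest to highest was neutrophils, Ly6C high of day 1, Ly6C high of day 2, Ly6C low of day 2, Ly6C low of day 4 and Ly6C high of day 4. Neighbours in that order were 0.21 to 0.37 apart, except for the step of 1.64 between Ly6C high cells of days 1 and 2, and no spread is known against which to set them. These levels stood for about 129 reads per library in Ly6C high cells of day 1 and about 799.6 on day 4. Counting alone gives an error of 0.08 on the step of 1.64, without the variation between animals.

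Between days 1 and 2 of Ly6C high cells, Pparg was the only 1 of the 5 members compared that was at least 2-fold apart. It was 3.11-fold higher on day 2. Of all 11232 genes compared, 2.51% were 2-fold apart, 1.41% were 2-fold higher and 1.1% lower, and 0.374% were at least as far up as Pparg. Ppard differed by 0.07 between the same groups, Rxra by 0.44, Rxrb by -0.03 and Ncor1 by -0.14. In such bulk values, fewer cells of a type and less RNA per cell cannot be told apart. Markers of fibroblasts moved with this step (4 of 6 compared were 2-fold higher and none lower), while 1 of 8 endothelial markers was higher and none lower. Neutrophil markers were 2-fold lower for 3 of 6 compared and higher for none, with a median difference of -0.94, and S100a9 was at 9.64 on day 1 and 7.36 on day 2. Summed over 12 genes, the neutrophil markers made up 3529 normalised reads on day 1, 2126 on day 2 and 1984 on day 4 of the Ly6C high cells, 2561 and 2264 on days 2 and 4 of the Ly6C low cells, and 83204 in the neutrophils, where Pparg was lowest. Csf3r was the largest of the 12 in every macrophage group. It was at 10.72 and 10.93 in Ly6C high and low cells of day 4, where the log2 of the sums was 10.95 and 11.14. S100a9 was at 5.04 and 3.71 there. On day 4 against day 2, the Ly6C high cells had 3 of 5 compared markers 2-fold lower and 1 higher. Over all genes 2% were lower and 14.3% higher in that comparison. The Ly6C low cells had 4 of 6 lower and none higher, against 2.16% and 9.23% over all genes. The part of neutrophils and other cells in the result was not tested.

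From day 2 to day 4 Pparg differed by 0.89 in Ly6C high cells, short of 2-fold, and none of the 5 members compared was 2-fold apart, against 16.3% of 12348 genes (14.3% higher and 2% lower). Of those genes 2-fold apart, 87.7% were higher on day 4, and 62.0% with quantile normalization. From day 1 directly to day 4 it was 5.76-fold higher, a difference of 2.53, and again was the only 1 of 5 members 2-fold apart. In that comparison 21.6% of 12391 genes were 2-fold apart, 17.6% were 2-fold higher and 3.97% lower, and 7.23% were at least as far up as Pparg. The share of higher genes among those 2-fold apart was 81.6%, and 56.9% with quantile normalization, while Pparg passed 2-fold under both. The median difference of the 5 members was 0.07 between days 2 and 1, 0.20 between days 4 and 2 and 0.46 between days 4 and 1, against -0.01, 0.01 and 0.01 over all genes compared. These comparisons share columns with each other and are not independent.

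Pparg is also expressed by fat cells and some endothelial cells, so their markers were read in the same columns. Adipoq, the adiponectin gene, was listed at 0 in neutrophils and in Ly6C high cells of day 2. In the other Ly6C high groups it was at 0.11 (day 1) and 4.21 (day 4), and the Ly6C low groups had 0.43 (day 2) and 1.21 (day 4). Plin1, which coats fat droplets in fat cells, was listed at 0 in 4 groups, and on day 4 it was at 4.73 in the Ly6C high and 1.01 in the Ly6C low cells. Lep and Adrb3 were listed at 0 in all groups. Only Lipe, of the 10 fat cell markers, reached 5, at 6.87 to 7.76 in the 6 groups. The summed level of the 10 ran from 119.4 to 273.7 normalised reads, highest in Ly6C high cells of day 4, where Pparg was highest too. Lipe was the largest of the 10 in every group, so the sum mostly follows this gene. It was at 7.76 in Ly6C high cells of day 4, where the log2 of the sum was 8.10. In Ly6C low cells of day 2 it was at 6.87, where the log2 of the sum was 6.90.

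The summed level of 10 endothelial markers was 1120 normalised reads in Ly6C high cells of day 1, 1015 on day 2 and 6035 on day 4, and 562.8 and 858.0 in Ly6C low cells of days 2 and 4. Of these 10 genes, 7, 8 and 10 reached 5 in the Ly6C high groups, and 5 in each Ly6C low group. The largest in the Ly6C low groups was Vwf, at 7.75 and 8.57, where the log2 of the sums was 9.14 and 9.74. The summed level of 10 fibroblast markers was 407.7, 1319 and 59072 in the Ly6C high groups, and 233.9 and 14890 in the Ly6C low groups. Between Ly6C high cells of day 2 and Ly6C low cells of the same day, Pparg was 0.21 higher in the Ly6C low cells, where the fibroblast and endothelial sums were lower. On day 4 it was 0.37 lower in Ly6C low than in Ly6C high cells, with the fibroblast, endothelial and fat cell sums lower as well. Dendritic cell markers, 10 genes, summed to 1315, 1564 and 3747 normalised reads in the Ly6C high groups and to 1073 and 1394 in the Ly6C low groups. Of these 10 genes, 8, 8 and 9 reached 5 in the Ly6C high groups, and 4 and 5 in the Ly6C low groups. The highest single gene was at 9.54 and 9.85 in the Ly6C low groups, where the log2 of the sums was 10.07 and 10.44. Markers of T, NK and B cells, 11 genes, summed to 49.2 to 83.4 up to day 2 and to 555.2 and 564.8 in the Ly6C high and low cells of day 4. Of those 11 genes, 3 and 2 reached 5 in these day 4 groups. The largest was Cd4, at 8.55 and 8.92, where the log2 of the sums was 9.12 and 9.14. Cd8a was at 6.02 in the Ly6C high and 0.11 in the Ly6C low cells. The part of all these other cells in the day 4 values was not tested.

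**Figure D2:**
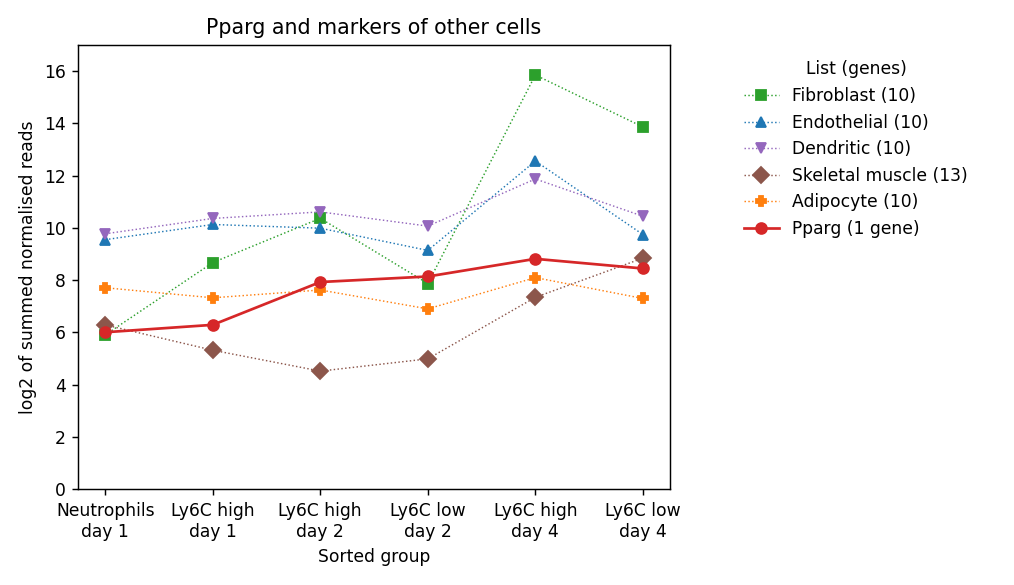
Log2 of the summed normalised reads (vertical axis) of marker lists of other cells and the log2 level of Pparg (solid red line) in the 6 groups (horizontal axis), with genes listed at 0 adding nothing to a sum and lines only to guide the eye. Fibroblast and endothelial markers are highest in Ly6C high cells of day 4, as is Pparg (8.81). On day 2 Pparg is at 8.14 in Ly6C low cells and 7.93 in Ly6C high cells. The part of other cells in its values was not tested.

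Ppard (ENSMUSG00000002250, chromosome 17, 28232700 to 28301474), the most broadly expressed PPAR, had another order over the groups than Pparg. It was at 8.67 in neutrophils, stood at 9.49, 9.56 and 9.09 over days 1, 2 and 4 of the Ly6C high cells, and at 8.83 and 9.06 over days 2 and 4 of the Ly6C low cells. Its highest values were those of Ly6C high cells on days 1 and 2. On day 2 it was 0.73 lower in Ly6C low than in Ly6C high cells, and from day 2 to day 4 it differed by -0.47 in Ly6C high cells and by 0.23 in Ly6C low cells. None of its 7 differences reached 2-fold.

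Because both genes were read in the same column, their balance does not depend on any factor by which a column was scaled. Per kilobase of exon, the difference of Pparg minus Ppard on the log2 scale was -1.31 in neutrophils and -1.85, -0.29 and 1.07 in Ly6C high cells of days 1, 2 and 4. It was 0.66 and 0.73 in Ly6C low cells of days 2 and 4. Of the sum of both genes per kilobase, Pparg made up 21.7% in Ly6C high cells of day 1, 45.0% on day 2 and 67.8% on day 4, and 61.2% and 62.5% in the Ly6C low groups. Pparg was thus below Ppard in the day 1 groups and above it in both day 4 groups and in Ly6C low cells of day 2.

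The size of this balance depends on the gene length used, but its difference between groups does not. With the longest annotated transcript in place of all exons, the difference was lower by the same amount in each group, at 0.12 in Ly6C low cells of day 2 and 0.54 and 0.20 in the Ly6C high and low cells of day 4. Between days 1 and 4 of Ly6C high cells the balance differed by 2.93 on the log2 scale. On day 2 it was 0.94 higher in Ly6C low than in Ly6C high cells, and on day 4 it was 0.34 lower.

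**Figure D3:**
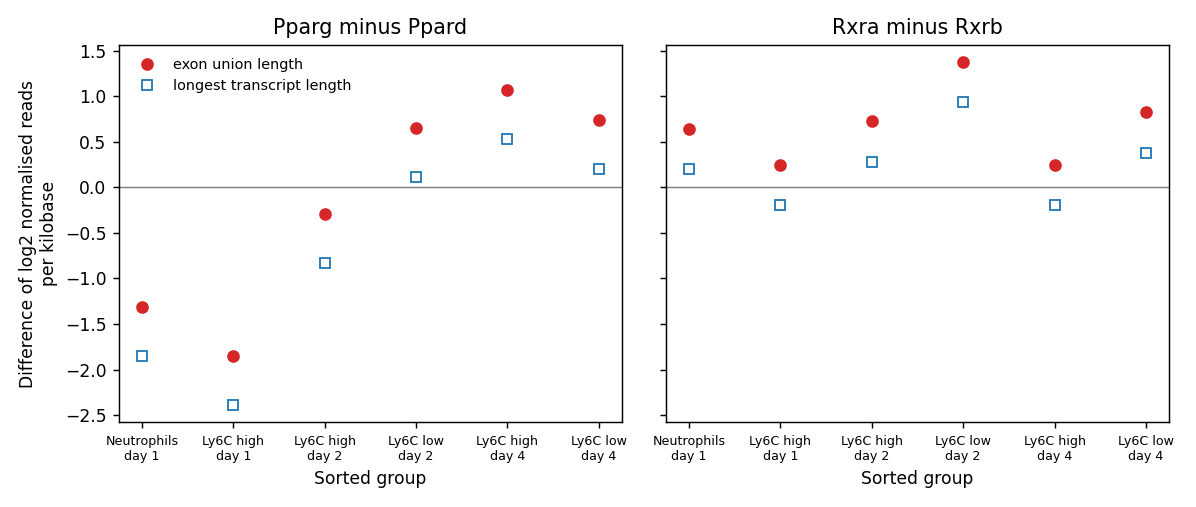
Difference of log2 normalised reads per kilobase (vertical axis) between Pparg and Ppard (left) and between Rxra and Rxrb (right) in the 6 groups (horizontal axis), with gene length taken as the union of exons (filled circles) or the longest transcript (open squares). Pparg minus Ppard runs from -1.85 in Ly6C high cells of day 1 to 1.07 in those of day 4, and Rxra minus Rxrb is highest in Ly6C low cells of day 2, at 1.37.

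Ppara (ENSMUSG00000022383, chromosome 15, 85734983 to 85802819), the PPAR of liver and heart that drives fatty acid oxidation, was near the floor. It was listed at 0 in both Ly6C low groups and on day 1 of the Ly6C high cells, and was at 0.34 in neutrophils, 0.12 in Ly6C high cells of day 2 and 1.14 in those of day 4. The highest value was in the group where the fibroblast, endothelial and fat cell sums were highest, and their part in it was not tested. No difference of Ppara was compared, since all its values were under 5.

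The RXRs are the shared partners of the PPARs and of other receptors. Rxra (ENSMUSG00000015846, chromosome 2, 27676440 to 27762957) was at 9.25 in neutrophils, stood at 8.997, 9.44 and 9.46 over days 1, 2 and 4 of the Ly6C high cells, and at 9.85 and 10.29 over days 2 and 4 of the Ly6C low cells. The Ly6C low groups were the highest ones. Rxra was higher in Ly6C low than in Ly6C high cells by 0.41 on day 2 and by 0.82 on day 4, both short of 2-fold. None of the 5 members compared on day 2 or the 6 on day 4 was 2-fold apart, against 7.74% of 11482 genes on day 2 (3.71% higher and 4.03% lower) and 11.4% of 12438 genes on day 4 (2.44% higher and 8.93% lower). Of the genes 2-fold apart on day 4, 21.4% were higher in Ly6C low cells, and 38.2% with quantile normalization. In that comparison 4.04% of the genes were at least as far up as Rxra. The median member difference was -0.12 on day 2 and 0.15 on day 4, against -0.03 over all genes compared on each day.

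Rxrb (ENSMUSG00000039656, chromosome 17, 34031812 to 34038399) was at 8.15 in neutrophils, stood at 8.29, 8.26 and 8.75 over days 1, 2 and 4 of the Ly6C high cells, and at 8.01 and 9.004 over days 2 and 4 of the Ly6C low cells. Its day 4 values were the highest ones in both populations. Between days 2 and 4 of Ly6C low cells it differed by 0.99, just under the threshold, and it passed at 1.03 with median-ratio rescaling and at 1.02 with quantile normalization. All 6 members compared between these 2 groups were above 0, with a median difference of 0.40, against 0.03 over 11824 genes. None of the 6 was 2-fold apart, against 11.4% of those genes (9.23% higher and 2.16% lower). Of the genes 2-fold apart, 81.1% were higher on day 4, and 66.7% with quantile normalization.

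Per kilobase of exon, Rxra was above Rxrb in every group, by 0.25 to 1.37 on the log2 scale. With the longest transcript it was 0.19 below in Ly6C high cells of days 1 and 4. In both pairs of populations the balance of Rxra over Rxrb was higher in Ly6C low than in Ly6C high cells, by 0.65 on day 2 and 0.57 on day 4. Rxrg, the third RXR gene, was listed at 0 in 4 groups, and on day 4 it was at 0.58 in the Ly6C high and 0.35 in the Ly6C low cells.

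Pparg and its partner Rxra can be set side by side in the same way. Per kilobase of exon, the difference of Pparg minus Rxra was -2.36 in neutrophils, then -1.82, -0.63 and 0.24 at days 1, 2 and 4 of the Ly6C high cells, so Pparg was the higher only in the last of these. It was -0.82 and -0.95 in the Ly6C low groups of days 2 and 4. Between Ly6C low and Ly6C high cells of day 4 this balance differed by -1.19, from the lower Pparg and the higher Rxra together.

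Ppargc1b (ENSMUSG00000033871, chromosome 18, 61298136 to 61400431), a coactivator of mitochondrial and lipid genes, was low throughout. It was at 3.72 in neutrophils, stood at 2.85, 3.63 and 4.42 over days 1, 2 and 4 of the Ly6C high cells, and at 4.47 and 5.14 over days 2 and 4 of the Ly6C low cells. Within each population the later day was higher, and on each day Ly6C low cells were higher than Ly6C high cells, by 0.84 on day 2 and 0.72 on day 4. The values stood for about 11.9 reads per library in Ly6C high cells of day 1 and about 82.5 in Ly6C low cells of day 4. Between Ly6C high cells of days 1 and 4 it differed by 1.58, with a counting error of 0.28, but both values were under 5 and the difference was not counted.

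Ppargc1a (ENSMUSG00000029167, chromosome 5, 51454250 to 51567726), the coactivator typical of muscle and brown fat, was at 0.20 in neutrophils, stood at 0.28, 1.01 and 0.76 over days 1, 2 and 4 of the Ly6C high cells, and at 1.03 and 1.86 over days 2 and 4 of the Ly6C low cells. Its highest value was that of Ly6C low cells of day 4. Muscle markers were highest in the same column. Their summed level over 13 genes was 458.6 normalised reads there, against 22.9 to 162.2 in the other groups, with Acta1, skeletal muscle actin, at 6.88 and Ttn, the titin gene, at 6.43. Their part in the value of Ppargc1a was not tested. Pprc1, the third gene of this coactivator family, was at 8.70 to 9.35 in the 6 groups.

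Ncor1 (ENSMUSG00000018501, chromosome 11, 62316426 to 62458541), which encodes a scaffold that brings histone deacetylase to receptors without an activating ligand, was read well in every group. It was at 11.73 in neutrophils, stood at 10.61, 10.47 and 10.67 over days 1, 2 and 4 of the Ly6C high cells, and at 10.35 and 10.72 over days 2 and 4 of the Ly6C low cells. The 5 macrophage groups lay within 0.37 of each other, and neutrophils stood above them. Ncor1 was the only 1 of 5 members that was 2-fold apart between Ly6C high cells of day 1 and neutrophils, at a difference of -1.12, lower in the macrophages. The background in that comparison was 32.7% of 11890 genes, made up of 16.6% higher and 16.1% lower ones. Parts of Ttc19 and Pigl, on the opposite strand, overlap exons of Ncor1. They were at 6.98 to 8.28 and 4.91 to 5.69, and reads shared with them cannot be told apart without strand.

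**Figure D4:**
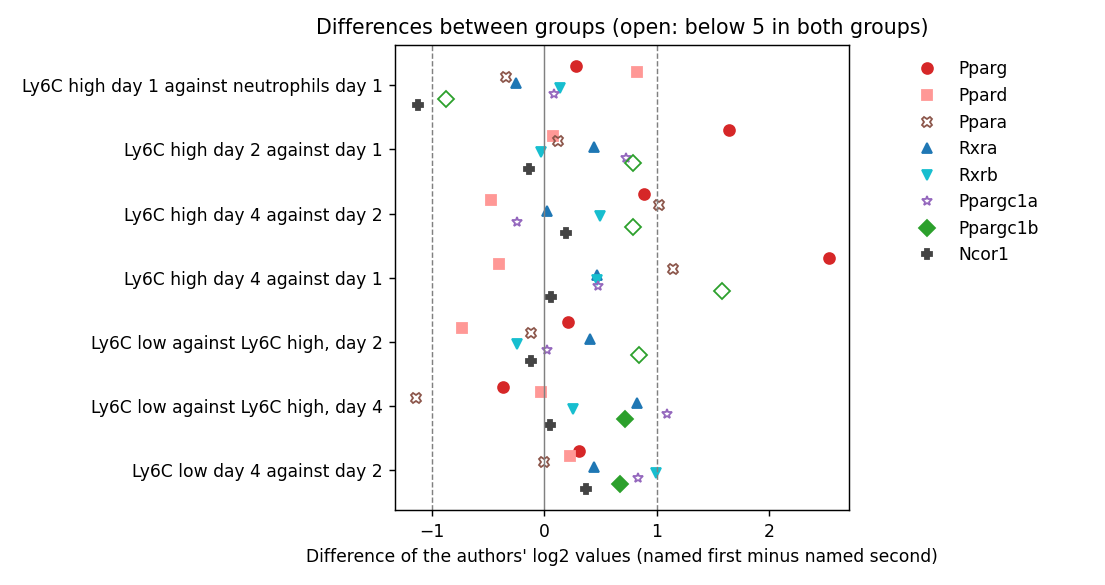
Difference of the authors' log2 values (horizontal axis, group named first minus group named second) for the 8 genes in 7 comparisons (vertical axis), filled where the gene reached 5 in 1 of the groups and open where it did not, with dashed lines at 2-fold. The filled points beyond the dashed lines are Pparg at 1.64 and 2.53 and Ncor1 at -1.12.

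The neutrophil column needs a reservation. Ly6g, the surface marker of neutrophils, was at 3.48 there and listed at 0 in the macrophages, and S100a9 was at 15.49, but the macrophage genes Csf1r and Emr1 (Adgre1) were at 13.27 and 12.22, against 13.31 to 14.71 and 12.34 to 13.69 in the macrophage groups. Which cells carried Pparg or Ncor1 in that column was not tested. All 10 macrophage markers were at 8.60 or more in the 5 macrophage groups, and at 8.95 or more in the neutrophil column. In Ly6C high cells of day 1, 3 of the 10 were higher than in neutrophils and 3 lower. Over all genes 16.6% were higher and 16.1% lower.

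Of 10 other corepressor genes, all were compared and none was 2-fold apart in any of the 6 comparisons between macrophage groups, where 2.51% to 21.6% of all genes were. Tbl1xr1, a subunit that links the complex to chromatin, was at 11.12 in neutrophils and 9.56 in Ly6C high cells of day 1. It was the only 1 of the 10 to be 2-fold apart there. Over all genes 32.7% were 2-fold apart in that comparison and 16.1% lower, so this count is under the background share. Hdac3, the deacetylase of the complex, was at 8.35 to 8.98.

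Of 13 listed coactivator genes, 12 were compared. None was 2-fold apart in the 6 comparisons between macrophage groups, where 2.51% to 21.6% of all genes were. Against neutrophils, 3 were lower in Ly6C high cells of day 1 and none higher, where 16.1% of all genes were lower and 16.6% higher, so the 3 are not set apart from the background by their number. Ep300, a histone acetyltransferase, differed by -1.34, and the p160 coactivators Ncoa2 and Ncoa3 by -1.31 and -1.30. The median of the 12 was -0.65, against 0.08 over all genes compared. The list of PGC-1 partners and targets had 11 of 14 genes compared. It held 1 higher and 1 lower gene against neutrophils, under the background share in each direction, Cycs (cytochrome c, 1.42) and Sirt1 (-1.29). In the other 6 comparisons, with the same 2.51% to 21.6% of all genes, 1 gene was 2-fold apart. This was Cycs in Ly6C low cells, at 7.61 on day 4 and 8.69 on day 2.

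RXR also pairs with other receptors. Of 14 listed genes, Rxrg included, 9 were compared, and 4 were higher and 2 lower in Ly6C high cells of day 1 than in neutrophils, against 16.6% higher and 16.1% lower over all genes. The higher ones were Vdr, Rarg, Nr4a2 and Rara, and the lower ones Nr1i3 and Nr4a1, at -1.52 and -1.04. Vdr, the vitamin D receptor, was at 5.39 in neutrophils, stood at 10.15, 8.80 and 7.63 over days 1, 2 and 4 of the Ly6C high cells, and at 6.82 and 6.14 over days 2 and 4 of the Ly6C low cells. In Ly6C high cells its order over days was opposite to that of Pparg, with a difference of -2.52 between days 4 and 1.

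Rarg, a retinoic acid receptor, differed by -1.57 between days 4 and 1 of Ly6C high cells, and Nr4a2, an orphan receptor induced by stimuli, by -1.14. Thra, a thyroid hormone receptor, was higher on day 4 by 1.63. Over that comparison 1 of 9 was higher and 3 were lower, against 17.6% and 3.97% over all genes. Nr1h3, which encodes the sterol receptor LXRα, was at 8.56 on day 1 and 9.32 on day 4, while Nr1h2, which encodes LXRβ, was at 9.99 and 9.92.

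Of 12 matched factors that act upstream of Pparg in fat cells or macrophages, none of 11 compared was 2-fold apart between days 1 and 2 of Ly6C high cells. With 2.51% of all genes 2-fold apart there, a count of 0 in 11 is near the background. Cebpa, a factor of myeloid and fat cell differentiation, was at 10.68 on day 1 and 11.13 on day 2. Sfpi1 (Spi1, encoding PU.1) was at 12.17 on both days, Stat6, which relays interleukin-4 signals, at 11.65 and 11.63, and Il4ra, the receptor subunit for that cytokine, at 12.00 and 11.76. From day 2 to day 4 of Ly6C high cells, 2 of 12 were higher and none lower, near the 14.3% and 2% over all genes. The median of the 12 was -0.19, with 8 below 0. These 2 were Ebf1, at 3.39 and 7.27, and Cebpd, at 7.88 and 9.29. In Ly6C low cells of day 4 they were at 3.80 and 7.46. The fibroblast and endothelial sums given above were highest in Ly6C high cells of day 4. Csf2rb was 2-fold lower on day 4 than on day 1 of Ly6C high cells, at -1.09. On day 2 it was lower in Ly6C low than in Ly6C high cells, at -1.125, and 10 of the 11 compared were below 0 there.

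Of 18 listed genes that supply or carry ligands of PPARs or RXRs, some were 2-fold apart in each of the 7 comparisons. In Ly6C high cells of day 1, 4 of 12 compared were lower than in neutrophils and none higher. Over all genes 16.1% were lower and 16.6% higher. The 4 were Alox5 (-3.61), Ptgs1 (-3.14), Lpl (-2.97) and Hpgds (-2.12), so Lpl and Hpgds were higher in the neutrophils, where Pparg was lowest. Between days 1 and 2 of Ly6C high cells, 3 of 12 compared were higher and 1 was lower, against 1.41% and 1.1% over all genes. Lpl, a lipase that frees fatty acids from lipoproteins, was higher by 2.24, the prostaglandin D synthase gene Hpgds by 1.49 and the fatty acid binding protein gene Fabp4, itself a PPARγ target, by 1.47. Ptgs2, which encodes cyclooxygenase-2, was lower, at -1.44. Ly6C low cells of day 2 were higher than Ly6C high cells for 3 of 12, Lpl, Hpgds and Fabp5, by 1.66, 1.55 and 1.12, and lower for Ptgs2, at -1.63, against 3.71% higher and 4.03% lower over all genes.

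From day 2 to day 4 of Ly6C high cells, 8 of 15 ligand genes were higher and 1 was lower, against 14.3% and 2% over all genes, with a median of 1.18 against 0.01 over all genes compared. Among the higher ones was Aldh1a2, which makes retinoic acid, at 8.32 against 3.96. On day 4 it was lower in Ly6C low cells, at 5.83. Between the Ly6C low and Ly6C high cells of day 4, 6 of 15 ligand genes were lower and 1 was higher. Over all genes 8.93% were lower and 2.44% higher. The fibroblast and endothelial sums were highest in Ly6C high cells of day 4 here too.

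The genes whose profile over the 6 columns lay closest to a member were sought by the root mean square difference of profiles centred on their own mean, among 13040 genes or more. For Pparg they included Galnt9 (0.23), Smpd3 (0.28), Dio2 (0.29) and Epas1 (0.31), with Pearson correlations of 0.957 to 0.979 over the 6 columns, and 47 genes lay within 0.5. Galnt9, for example, was at 3.15 in neutrophils, stood at 3.96, 4.99 and 6.28 over days 1, 2 and 4 of the Ly6C high cells, and at 5.81 and 5.89 over days 2 and 4 of the Ly6C low cells. All genes were read in the same libraries, and with 6 points such likeness is a description only.

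Of the other members, the 5 with a range of at least 1 had more genes within 0.5 than Pparg. The distance is fixed, so the count depends on how wide a profile is, and Pparg had the widest range. For Ppargc1b the closest were Tmem143 (0.06), Hrsp12 (0.08), BC026585 (0.08), Sort1 (0.09) and Selenbp2 (0.10), with 1200 genes within 0.5. For Rxra they were Cerk (0.07), Slc16a7 (0.09), Vipas39 (0.10), Manba (0.10) and Chchd8 (0.10), with 4593. For Ncor1 they were Mboat7 (0.05), Klf6 (0.06), Polr2a (0.06), Rfwd2 (0.06) and Smchd1 (0.06), with 3746. For Ppara and Ppargc1a, whose profiles rest on few reads, 3581 and 2378 genes lay within 0.5, the closest being Asap2 (0.14) and Igsf8 (0.15).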

How the data were processed

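TruSeq libraries were prepared after poly-A selection, per the labels' protocols. Names found in the submitters' processing notes are mm10, TopHat2 2.0.7 and Cufflinks 2.0.2, without roles. Counting, annotation and normalization: not given in the sources used here. Values deposited by the authors are log2 normalised reads in 1 column per group (17 samples, 6 groups), used as the authors' group values. Total depth is unknown. To find the worth of a read, each group value was assumed to be the mean of its libraries' log2 values, with a floor of 1 normalised unit. Low values with 1 library above the floor then give whole multiples of a constant, 1 constant per library (relative tolerance 1e-05). By group, 25.6% to 63.3% of low values lay on such multiples. Read numbers and counting errors rest on this assumption. The errors cover counting only, and for neutrophils they may be too small, since even multiples prevailed in 1 library. With no sample values, limma, leaving out samples and replicate blocks could not be run.

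Differences were taken in 7 comparisons (minimum log2 value 5, threshold 1). The scripts (Python 3.11.15, pandas 2.3.3) were tested on simulated data. Exon lengths and coordinates are from GENCODE M21 (GRCm38), which held 95.3% of identifiers, and promoters from RefSeq (GRCm38.p6; 7 of 8 members used). Genes named are the 8 members, the up to 4 genes of a list furthest apart in a comparison, listed genes needed to read a member, and the 5 closest profiles of members with a range of at least 1. Nr1h2, Nr4a1, Pprc1, Rara, Rxrg, Sfpi1 and Stat6 were named from their lists after their values were seen. A few genes that this rule names are not reported here. The members and lists were chosen with earlier results of these data known. Of the listed symbols, 2 were matched by identifier (1 of them a repeat) and 1 was not matched. Alternatives were pseudocounts of 0.1 and 5, no minimum, a minimum of 7, median-ratio rescaling, quantile normalization and the longest transcript as length.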

Additional observations from a re-analysis of the deposited data

How the results depend on the processing

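The 37 member differences compared were recomputed under 6 alternatives. None of the 3 that passed 2-fold fell below it or changed sign under any of them. Without a minimum, the members 2-fold apart numbered 1 instead of 0 between days 4 and 2 of Ly6C high cells, 3 instead of 1 between days 4 and 1, and 2 instead of 0 between Ly6C low and high cells of day 4, through Ppara, Ppargc1a and Ppargc1b, all at low values. For days 4 and 2 of Ly6C low cells the number was 1 instead of 0 under median-ratio rescaling and quantile normalization, through Rxrb. A pseudocount or another minimum cannot change a sign, so only median-ratio rescaling and quantile normalization bear on signs. Under these 2 scalings signs changed in 3 cases, all of differences of 0.14 or less. Rxrb changed between Ly6C high cells of day 1 and neutrophils under both scalings (-0.01 and -0.02). Ncor1 changed between Ly6C low and high cells of day 2 under quantile normalization (0.03). Rescaling moved the median of all genes by up to 0.15.

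Over all genes, the numbers 2-fold apart were 3886, 282, 2008, 2674, 889, 1414 and 1346 in the 7 comparisons, in the order of the plot of differences. They were 8154, 1024, 4542, 5398, 2244, 3263 and 3235 without a minimum, and 2556, 136, 1019, 1471, 448, 723 and 750 with a minimum of 7. No paired analysis was possible because the table holds 1 column per group and no sample values. For the same reason no sample could be left out, and the limit set by variation between animals is unknown.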

Other observations

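Of 20 listed PPAR target genes, 17 or 18 were compared, depending on the groups, and 3 of them (Fabp4, Cd36 and Lpl) also stand in the list of ligand genes. Between Ly6C high cells of days 2 and 1, 2 of 18 were higher and none lower, Lpl by 2.24 and Fabp4 by 1.47, against 1.41% higher and 1.1% lower over all genes. Between days 4 and 1, 3 of 18 were higher and 1 lower, near the background of 17.6% and 3.97%. Angptl4, which encodes an inhibitor of lipoprotein lipase, was at 9.83 on day 4 and 4.78 on day 1, so that only its day 4 value reached 5, Lpl at 13.08 and 8.84, and Fabp4 at 11.16 and 7.73. Cd36, a fatty acid and lipoprotein receptor of macrophages, was the lower one, at 12.53 and 13.78. All 10 fibroblast and all 10 endothelial markers were higher on day 4 too, with median differences of 6.91 and 2.67, and the fat cell gene Plin1 was at 4.73 on day 4 and listed at 0 on day 1. Their part in these values was not tested.

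On day 4, 2 of 18 target genes were 2-fold lower in Ly6C low than in Ly6C high cells and none was 2-fold higher. Over all genes 8.93% were lower and 2.44% higher, so these counts are near the background. The 2 were Fabp4 and Angptl4, at -1.95 and -1.39, while Lpl was 0.88 higher and Cd36 0.72 higher. Of the 18, 13 were above 0, with a median of 0.29, against -0.03 over all genes compared. Of the endothelial markers 9 of 10 were lower there, with a median of -4.16, and of the fibroblast markers 10 of 10, with a median of -2.27, while Plin1 was at 1.01 against 4.73 and Adipoq at 1.21 against 4.21. Their part in these differences was not tested. On day 2, Lpl was the only 1 of 18 that was 2-fold apart, higher by 1.66 in Ly6C low cells, against 7.74% of all genes. Of the 18, 14 were above 0 on that day, with a median of 0.39, against -0.03 over all genes compared. Gdf3, a TGF-beta family ligand, was at 4.38 in neutrophils, 6.38, 6.61 and 6.97 in Ly6C high cells of days 1, 2 and 4, and 7.35 and 7.28 in Ly6C low cells of days 2 and 4.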
